A study of Mus musculus with 10 samples.

Results

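The genes described here encode 46 enzymes and Polycomb core subunits that place or remove methyl groups on histone lysines other than the one methylated by DOT1L. They were chosen by name, by the residue they act on, and all 46 were found among the 43629 genes listed. RNA-seq counts were compared between 5 control and 5 Dot1l-cKO samples of mouse dorsal telencephalon, the tissue that forms the cerebral cortex, at E14.5. Controls were Dot1l-cKO f/+ and had no Cre, so they carried a floxed Dot1l allele that was left intact. Dot1l-cKO embryos were Dot1l-cKO f/f and Cre/+. All were of strain C57BL/6. The Cre is a knock-in, so the mutants also had an altered copy of the gene that carries it, which the controls did not. Recombination is limited to cells in which the Cre was active or to their descendants. In addition, the groups differ in Cre as well as in Dot1l, and these cannot be told apart.

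Methylation of histone lysines marks chromatin by residue. H3K4 methylation is found at promoters and enhancers, and H3K36 methylation along transcribed genes. H3K27 methylation is placed by Polycomb repressive complex PRC2, whose core consists of EZH1 or EZH2 with EED and SUZ12, and it accompanies silent developmental genes. H3K9 and H4K20 methylation are found in compact chromatin. Demethylases of the LSD1 and JmjC families remove these marks. In the cortex, EZH2 is known for its high expression in progenitors and for timing the passage from neuron to glia production, while EZH1 is kept in neurons.

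Total counts per sample ranged from 54202349 to 66556034. The 46 genes together took between 0.519% and 0.641% of the counts of a sample, and the lowest count of any of them in any sample was 313. The deposited normalised tables carry a number in their column names, here called the header number, which was 57 for replicates 2 and 3 of both groups. These 4 samples had 0.0471% to 0.492% of their counts in mitochondrial rRNA, against 5.79% to 10.9% in the other 6, so differences are also given within each set. Replicate numbers were taken to pair a control with a Dot1l-cKO sample, but such a pairing within a header number is not established. A fit with the replicate number as a block is given where it changes a call. Dot1l had a log2 fold change of 0.081 (SE 0.20, edgeR adjusted p = 0.864) over all its exons, which does not test the deleted part. Dot1l-cKO replicate 2 stood apart from the other mutants for many of the genes described here, and fold changes that moved by more than 1.5 times without it are given both ways for the genes with the largest differences.

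Promoters are shown for 4 genes with a parallel pattern over the samples, Ezh2, Eed, Suz12 and Suv39h2. None of the 4 was differentially expressed by edgeR without the replicate block. With it all 4 were decreased, but these calls were lost without the pair of replicate 1 or 4. The sequences are from RefSeq, build GRCm38.p6, 5′ to 3′ on the strand of the gene. Each lies within the 250 bases before the start listed by RefSeq and outside annotated exons of protein-coding genes. For Ezh2 that start is downstream of the 5′ end of the annotated gene, so the stretch shown for it lies within the gene. Capitals mark TTTCCCGC, and no other of the letters searched was present.
Ezh2 (chr6:47595059-47595183, minus strand): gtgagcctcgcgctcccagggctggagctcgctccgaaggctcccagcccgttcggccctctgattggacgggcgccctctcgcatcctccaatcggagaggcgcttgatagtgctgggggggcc
Eed (chr7:89980984-89981226, minus strand): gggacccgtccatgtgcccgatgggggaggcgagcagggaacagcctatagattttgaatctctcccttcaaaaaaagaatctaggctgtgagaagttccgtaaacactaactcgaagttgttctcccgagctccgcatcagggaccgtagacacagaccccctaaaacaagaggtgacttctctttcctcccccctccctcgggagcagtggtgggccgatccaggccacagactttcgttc
Suz12 (chr11:79992856-79993105, plus strand): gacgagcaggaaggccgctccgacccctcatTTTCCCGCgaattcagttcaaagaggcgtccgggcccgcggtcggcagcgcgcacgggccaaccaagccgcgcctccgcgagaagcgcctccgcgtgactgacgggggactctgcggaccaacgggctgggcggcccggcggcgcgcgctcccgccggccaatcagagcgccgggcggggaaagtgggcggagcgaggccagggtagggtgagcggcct
Suv39h2 (chr2:3475032-3475236, minus strand): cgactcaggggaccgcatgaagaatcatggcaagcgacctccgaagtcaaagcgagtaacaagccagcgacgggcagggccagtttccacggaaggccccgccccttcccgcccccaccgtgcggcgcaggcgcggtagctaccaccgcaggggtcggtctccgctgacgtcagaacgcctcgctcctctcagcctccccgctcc
Windows of 250 bases before the start were searched on both strands for TTTGGCGC, TTTCGCGC, TTTCCCGC and TTTGCCGC, letters like those bound by E2F factors of the cell cycle. A promoter was listed for 32 of the 46 genes. The letters stood in 2 of these, Suz12 and Kmt5c, which is 6.25%, against 1.86% of all 32851 windows. In Suz12 they ended 212 bases before the start. The windows of the 32 genes had a median GC content of 63%, against 52.4% over all windows.

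In control tissue, all 46 genes were expressed, over a range of about 2 orders of magnitude in FPKM, that is counts per 1000000 (CPM) per 1000 bases of exon. The H3K4 demethylase gene Kdm1a (LSD1) was the most highly expressed, with 83.8 ± 4.25 FPKM (SD, n = 5). It was followed by Ehmt2 (G9a), an H3K9 methyltransferase gene, with 49.7 ± 3.48 FPKM and by the H3K9 and H3K36 demethylase gene Kdm4a with 48.6 ± 2.89 FPKM, which do not differ beyond their spread. The lowest was Setd1b, the catalytic subunit gene of an H3K4 methyltransferase complex, with 0.857 ± 0.18 FPKM. Next were Smyd3 with 1.64 ± 0.109 FPKM and Setd1a with 1.98 ± 0.224 FPKM. Of the PRC2 methyltransferases, Ezh2 was at 21 ± 4.5 FPKM and Ezh1 at 2.54 ± 0.273 FPKM. Suz12 with 20.5 ± 5.03 FPKM was within the spread of Ezh2, and Eed was at 11.9 ± 1.82 FPKM. The defining markers of dorsal telencephalon, Emx1, Emx2, Neurod6, Neurod2 and Tbr1, summed to between 1050 and 1230 CPM in controls and between 1120 and 1440 CPM in Dot1l-cKO. They did not move together. The log2 fold changes were -0.29 for Emx1 and -0.52 for Emx2, and 0.20, 0.34 and 0.20 for Neurod6, Neurod2 and Tbr1. None was DE by edgeR without a block, while 1 was increased with the replicate block and 1 by DESeq2.

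**Figure D1:**
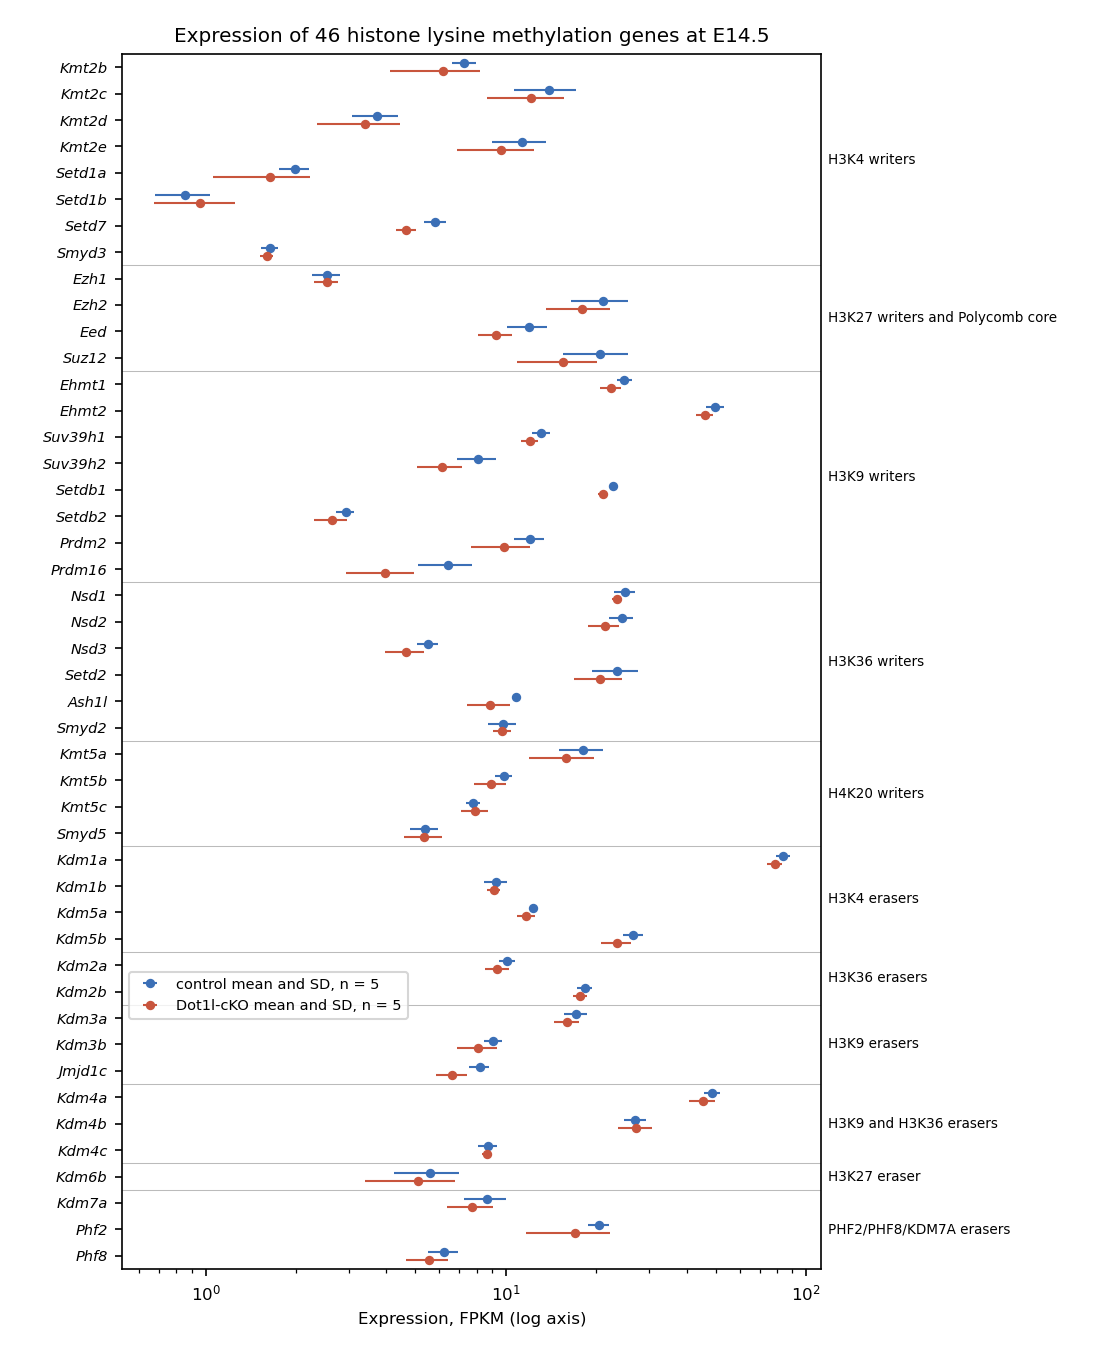
Expression of the 46 genes in FPKM on a log axis, grouped by the residue and action of the enzyme; points are means and bars SD of 5 control (blue) and 5 Dot1l-cKO (red) samples. Kdm1a is highest in both groups and Setd1b lowest, and the 2 groups lie close to each other for most genes.

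Expression differences upon Dot1l-cKO were small. By edgeR's quasi-likelihood test with Benjamini-Hochberg adjustment over 17039 genes, 1 of the 46 genes was differentially expressed (DE), Setd7, which was decreased. Among all genes tested, 7.11% were DE, with 5.67% increased and 1.44% decreased. Among the 9715 genes expressed at least as highly as the lowest of the 46 genes, the DE share was 5.01%, with 3.08% increased and 1.94% decreased. None of the 46 genes was increased by edgeR, nor by DESeq2 or limma, and none had an increase at an unadjusted edgeR p under 0.05. At that unadjusted threshold 7 of 46 were lower in Dot1l-cKO (15.2%), against 7.3% of all genes. With the replicate block, 6 of the 46 genes were DE, all decreased: Setd7, Ezh2, Eed, Suz12, Suv39h2 and Jmjd1c. In that fit 9.41% of all genes were DE, with 6.51% increased and 2.91% decreased. DESeq2 without a block also called 6 genes, all decreased: Setd7, Eed, Suv39h2, Jmjd1c, Setdb1 and Prdm16, with 10.4% of all genes DE, 6.98% increased and 3.43% decreased.

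The fold changes leaned to lower values in Dot1l-cKO. Negative log2 fold changes were found for 43 of the 46, and the median was -0.15, against -0.006 over all genes tested and -0.042 over the genes at or above the lowest of the 46 in level, of which 60.4% were negative. Methyltransferase and Polycomb core genes had a median of -0.185 (30 genes) and demethylase genes one of -0.108 (16 genes). The median deviation of the 46 genes from the control mean lay between -0.034 and 0.047 log2 units in the 5 controls and between -0.172 and -0.044 in the 5 Dot1l-cKO samples. Without Dot1l-cKO replicate 2 the median fold change was -0.10. Groups did not overlap for 3 of 46 genes, Setd7, Setdb1 and Prdm16, all lower in Dot1l-cKO, where 2.17% of all genes were lower and 6.17% higher without overlap. Many of these genes have long transcripts. Among genes at or above the lowest of the 46 in level, the median log2 fold change was 0.007 for summed exon lengths up to 4000 bases, -0.045 from there to 6000, -0.077 to 9000, -0.096 to 13000 and -0.125 above that. The corresponding medians of the genes described here were -0.185 (2 genes), -0.107 (14), -0.145 (8), -0.175 (10) and -0.174 (12). They differed from the medians of genes of like length by -0.192, -0.062, -0.068, -0.079 and -0.049 log2 units. The part of exon length in the lower values was not tested.

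**Figure D2:**
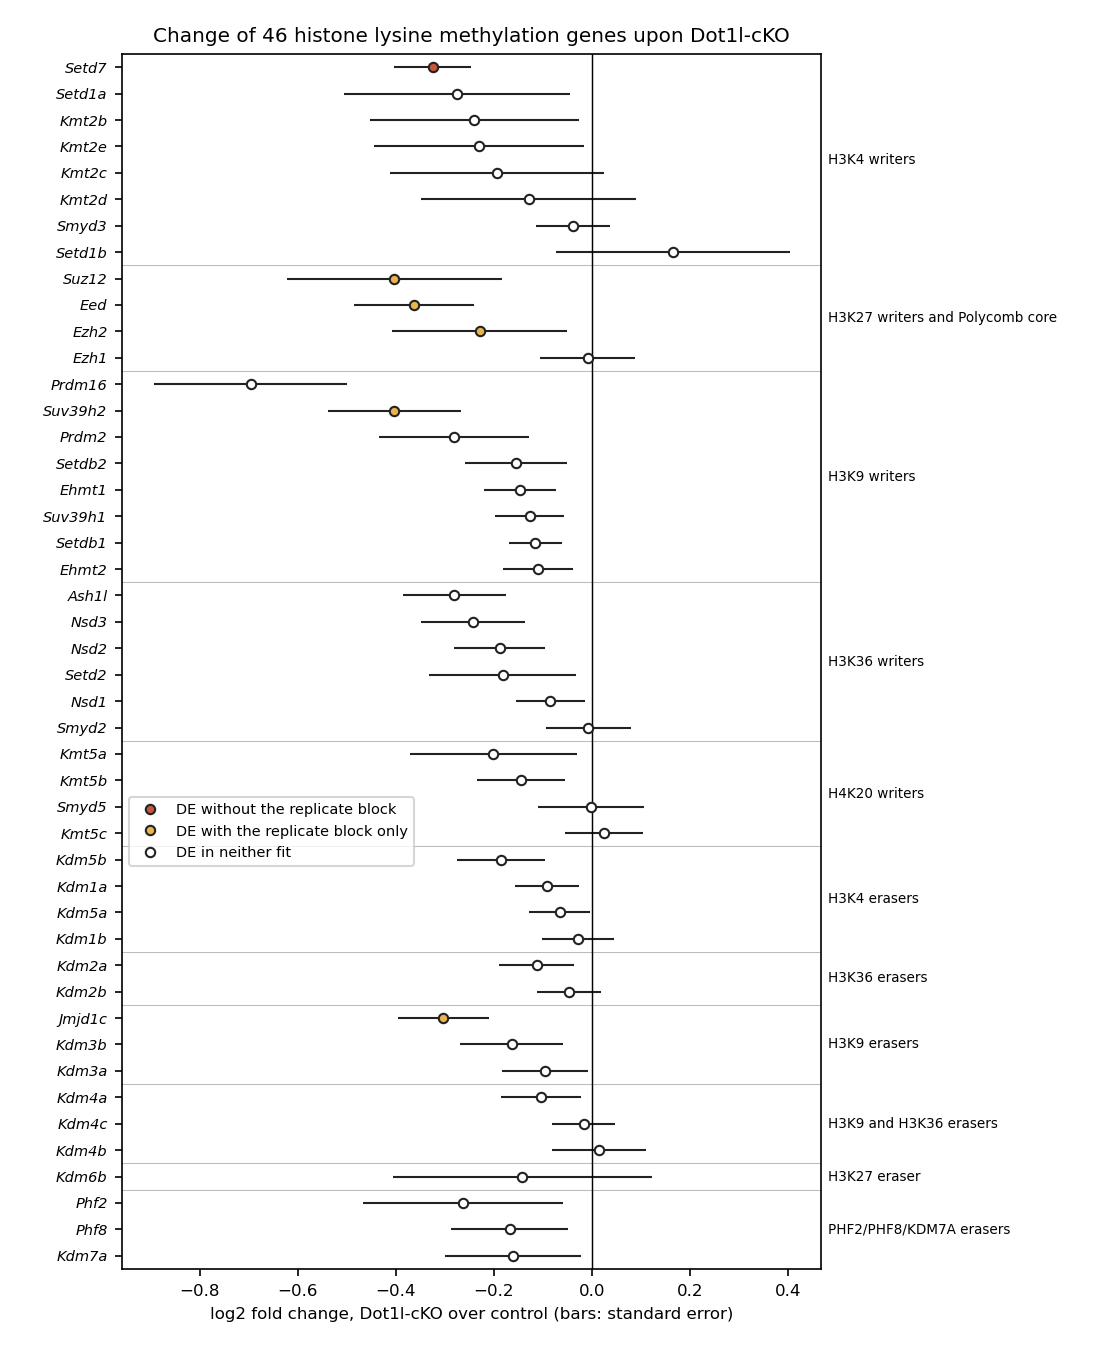
log2 fold change of each of the 46 genes in Dot1l-cKO over control, from the edgeR fit without a block, with standard errors as bars, grouped by residue and sorted within each group. Setd7 (red) was DE in this fit, 5 genes (yellow) were DE by edgeR only with the replicate block, and 3 genes, Setd1b, Kmt5c and Kdm4b, lie above 0.

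**Figure D3:**
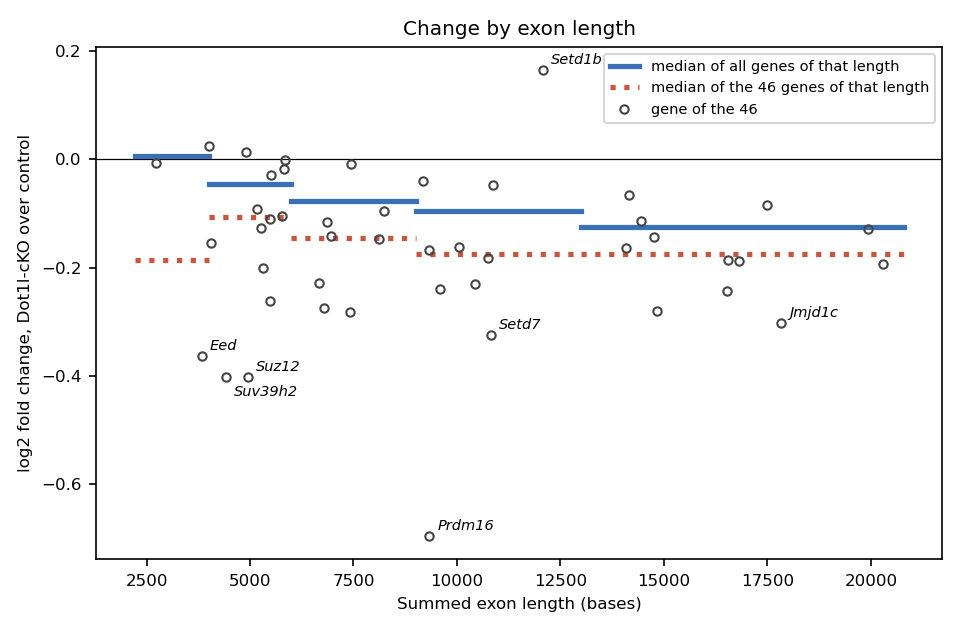
log2 fold change of the 46 genes (circles) against summed exon length in bases, with the median over all genes of that length and at least that level (blue lines) and over the 46 genes (dotted red lines) in 5 length classes. The blue lines step down from 0.007 to -0.125 with length, and the dotted lines lie below them in each class.

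Of the H3K4 methyltransferase genes, Setd7 was decreased upon Dot1l-cKO. SETD7 adds a single methyl group to H3K4 and also methylates proteins other than histones. The gene (ENSMUSG00000037111) lies on chromosome 3 from 51515319 to 51560879 on the minus strand of GRCm38. It was at 70.2, 66, 63.3, 56.4 and 59.5 CPM in the controls, in the order of replicates 1 to 5. The mutants, in the same order, were at 53.4, 44.6, 49.5, 50 and 54.3 CPM. All mutant samples were below all controls. The means were 63.1 ± 5.39 CPM and 50.4 ± 3.83 CPM (SD, n = 5 each), which gave a log2 fold change of -0.33 (SE 0.08, edgeR adjusted p = 0.0296). With the replicate block the adjusted p was 0.0355, and the blocked call was lost when the pair of replicate 1, 2, 3 or 4 was left out. Mean log2 CPM differed by -0.46 among samples with header number 57 and by -0.23 among the rest. Leaving out 1 sample at a time, the call was lost in 5 of 10 cases, namely without control replicate 1 or 2 or without Dot1l-cKO replicate 2, 3 or 4, and it was lost with a covariate for Y-linked expression. Its log2 fold change lay between -0.44 and -0.24 over all alternatives, and its adjusted p between 0.000855 and 0.207.

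The other 7 H3K4 methyltransferase genes were not DE. These were Kmt2b, Kmt2c and Kmt2d, which encode the MLL-type catalytic subunits, Kmt2e, a related gene whose product lacks clear methyltransferase activity, the SET1-type genes Setd1a and Setd1b, and Smyd3. Among them Setd1a had the largest difference, a log2 fold change of -0.28 (SE 0.23, edgeR adjusted p = 0.559). Of its exon sequence, 51.8% is shared on the same strand with another annotated gene, so its value is uncertain. The other gene, Gm49388, is not among the genes listed in the tables used here, and what the overlap did to the counts of Setd1a is not known. Kmt2b, Kmt2c, Kmt2d and Kmt2e had log2 fold changes of -0.24, -0.19, -0.13 and -0.23. For each of these 4 genes, Dot1l-cKO replicate 2 was the lowest mutant and control replicate 3 the lowest control, both with header number 57. In control replicate 3, Kmt2c was at 188 CPM and Kmt2e at 76.7 CPM. The other controls were at 237 to 337 CPM and 121 to 138 CPM. Kmt2b was at 28.7 CPM in Dot1l-cKO replicate 2, against 58.7 to 83.1 CPM in the other 4 mutants and 61.7 to 77.5 CPM in controls. Setd1a was at 5.43 CPM in that sample and at 9.77 to 16.3 CPM in the other mutants, with 11.5 to 15.1 CPM in controls. Without it the log2 fold changes of Kmt2b, Kmt2c, Kmt2d and Kmt2e were -0.066, -0.059, 0.038 and -0.082, and Setd1a was at -0.10. In the fit without any sample of header number 57, the same 4 genes were at -0.086, -0.168, 0.026 and -0.151. Setd1b had the highest log2 fold change of the 46 genes with 0.17 (SE 0.24, edgeR adjusted p = 0.752). Without Dot1l-cKO replicate 2 it was at 0.34 (edgeR adjusted p = 0.249), then the largest difference of these 7 genes. Smyd3 was at -0.039.

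Of the PRC2 core, Ezh2, Eed and Suz12 were lower in Dot1l-cKO in each of the 5 pairs of samples with the same number, and Ezh1 was not. Lower values in all 5 pairs were also found for other genes, among them all 8 H3K9 methyltransferase genes. The share of all genes with such values was not determined. EZH2 and EZH1 are the alternative catalytic subunits, EED binds methylated H3K27, and SUZ12 holds the complex together. Ezh2 (chromosome 6, 47530139 to 47595341) was at 128, 183.9, 156.7, 123.6 and 108.6 CPM in controls 1 to 5. The corresponding mutants were at 108.9, 153.8, 146.3, 98.2 and 90.7 CPM. The groups overlapped, since replicates 2 and 3 were high and replicate 5 was low in both. Eed (chromosome 7, 89954654 to 89980983) had 48.4, 50.9, 51.5, 42.4 and 34.9 CPM in controls and 34.5, 40.2, 40.5, 30.3 and 32.1 CPM in the mutants. Suz12 (chromosome 11, 79993106 to 80034123) had 98.4, 134, 117, 85.7 and 71.8 CPM in controls and 77.7, 100, 98.4, 54.5 and 53 CPM in the mutants. The order of the replicates was again alike in both groups, with the header-number 57 samples highest. By edgeR without the block none of the 3 genes was DE, while DESeq2 without a block called Eed (adjusted p = 0.0371). Suz12, the gene with the largest difference in this class, had a log2 fold change of -0.40 (SE 0.22, edgeR adjusted p = 0.339). The adjusted p was 0.11 for Eed and 0.526 for Ezh2, at log2 fold changes of -0.36 and -0.23. With the replicate block the log2 fold changes were -0.42 for Suz12 (SE 0.07, edgeR adjusted p = 0.0105), -0.36 for Eed (adjusted p = 0.0221) and -0.24 for Ezh2 (adjusted p = 0.0395). A block on the header number gave adjusted p-values of 0.00735, 0.0126 and 0.0412 in the same order. The blocked calls of all 3 were lost when the pair of replicate 1 or that of replicate 4 was left out, and that of Ezh2 also without the pair of replicate 2 or 5. Mean log2 CPM differed by -0.34 for Suz12, -0.34 for Eed and -0.18 for Ezh2 among samples with header number 57, and by -0.48, -0.37 and -0.28 among the rest. Ezh1 was at 18.9 ± 2.03 CPM in controls and at 18.8 ± 1.7 CPM in the mutants (SD, n = 5 each). Its log2 fold change was -0.009 with a 95% interval from -0.22 to 0.20.

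**Figure D4:**
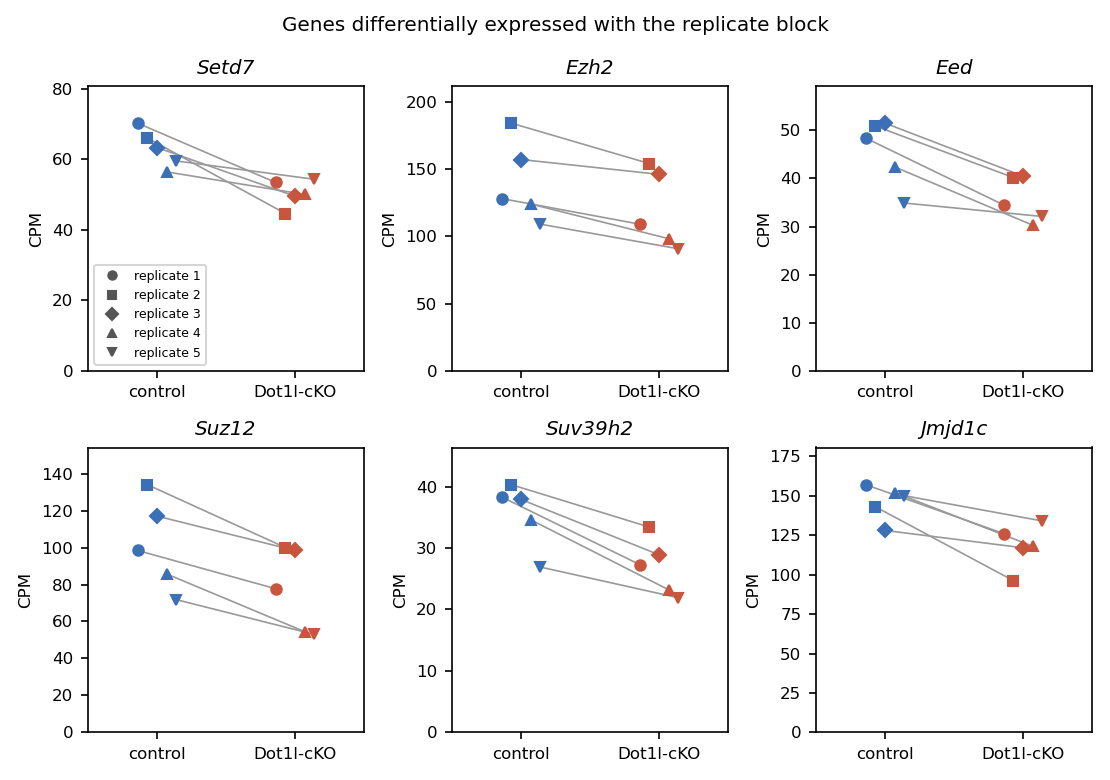
CPM of the 6 genes that were DE with the replicate block, in control (blue) and Dot1l-cKO (red), with a line joining samples of the same replicate number. Each line falls from control to Dot1l-cKO, while the levels of Ezh2, Eed, Suz12 and Suv39h2 spread in parallel in both groups.

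Among the H3K9 methyltransferase genes, only Suv39h2 was DE with the replicate block. Its replicate 2 was highest and its replicate 5 lowest in both groups. SUV39H1 and SUV39H2 trimethylate H3K9 in pericentric heterochromatin. Suv39h2 (chromosome 2, 3455815 to 3475031) was at 38.3, 40.3, 37.9, 34.6 and 26.9 CPM in controls 1 to 5, and mutants 1 to 5 were at 27.3, 33.4, 28.9, 23.2 and 21.9 CPM. Like every gene of this class, it was lower in the mutant in 5 of 5 pairs. The groups overlapped through control replicate 5. The log2 fold change was -0.40 (SE 0.14, edgeR adjusted p = 0.108), and with the replicate block it was -0.41 (SE 0.07, edgeR adjusted p = 0.0124). The blocked call was lost without the pair of replicate 1 or that of replicate 4. DESeq2 without a block gave an adjusted p of 0.036. Suv39h1, on the X chromosome, had a log2 fold change of -0.13 (edgeR adjusted p = 0.344). The log2 ratio of Suv39h1 to Suv39h2 was 0.96 ± 0.17 in controls and 1.24 ± 0.22 in Dot1l-cKO (SD, n = 5 each), and it was higher in the mutant in 5 of 5 pairs. The difference of 0.28 had an exact two-sided permutation p of 0.0714, or 0.393 adjusted over 22 gene pairs.

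Prdm16 had the largest difference of all 46 genes. PRDM16 is a zinc-finger transcription factor of cortical radial glia with a domain related to H3K9 and H3K4 methyltransferases. The gene (chromosome 4, 154316125 to 154636873) was at 51.9, 78.7, 62.1, 57.9 and 47.5 CPM in controls 1 to 5. The corresponding mutants were at 37.1, 20.8, 41.5, 39.3 and 45.3 CPM. The groups did not overlap, and Dot1l-cKO replicate 2 was well below the other mutants. The log2 fold change was -0.70 (SE 0.20, edgeR adjusted p = 0.0583), which missed the threshold, and with the replicate block the adjusted p was 0.104. DESeq2 gave an adjusted p of 0.00778, and over all alternatives it ranged up to 0.242. Mean log2 CPM differed by -1.25 among samples with header number 57 and by -0.37 among the rest. Without Dot1l-cKO replicate 2, which removed the lowest value, Prdm16 was DE with a log2 fold change of -0.55 (edgeR adjusted p = 0.0426).

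The other H3K9 methyltransferase genes were not DE in the fit without a block or in that with it. Setdb1, whose product is brought to silenced repeats, was at 156 ± 3.9 CPM in controls and at 144 ± 5.18 CPM in the mutants (SD, n = 5 each) without overlap, a log2 fold change of -0.12 (edgeR adjusted p = 0.253), and DESeq2 called it with an adjusted p of 0.0215. Ehmt1 and Ehmt2, whose products act as a pair on H3K9 in active chromatin, had log2 fold changes of -0.15 and -0.11, each lower in 5 of 5 pairs. Prdm2 and Setdb2 were at -0.28 and -0.15. For Prdm2 the lowest sample was again Dot1l-cKO replicate 2, and without it the log2 fold change was -0.16.

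None of the 6 H3K36 methyltransferase genes was DE in the edgeR fits or by DESeq2 or limma. At an unadjusted edgeR p under 0.05, 2 of the 6 were lower, Ash1l and Nsd3, against 7.3% of all genes. ASH1L is a Trithorax group protein, and the NSD family dimethylates H3K36, which SETD2 brings to the trimethylated state. Ash1l had the largest difference, a log2 fold change of -0.28 (SE 0.11, edgeR adjusted p = 0.15). Its level was between 153 and 167 CPM in the 5 controls and at 133, 99.5, 140, 127 and 158 CPM in mutants 1 to 5. Nsd3 had a log2 fold change of -0.24, Nsd2 of -0.19, Setd2 of -0.18, Nsd1 of -0.085 and Smyd2 of -0.007. When Dot1l-cKO replicate 2 was left out, the largest difference was that of Nsd2 with -0.20, with Ash1l at -0.196, Nsd3 at -0.16 and Setd2 at -0.093.

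The H4K20 methyltransferase genes likewise had no DE member in these fits, and none had an unadjusted edgeR p under 0.05. Kmt5a (SET8), which monomethylates H4K20 in dividing cells, had the largest difference with a log2 fold change of -0.20 (SE 0.17, edgeR adjusted p = 0.564). Kmt5b was at -0.14, and Kmt5c and Smyd5 were at 0.025 and -0.001. Kmt5a was at -0.099 without Dot1l-cKO replicate 2, and then Kmt5b had the largest difference with -0.18.

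Of the demethylase genes, only Jmjd1c was DE with the replicate block. Lower values in Dot1l-cKO in 5 of 5 pairs were found for Jmjd1c and also for Kdm5b, Kdm2a, Kdm4a and Phf8. Jmjd1c encodes a large JmjC protein related to the H3K9 demethylases KDM3A and KDM3B. Jmjd1c (chromosome 10, 67096125 to 67256326) was at 157, 143, 128, 152 and 150 CPM in controls 1 to 5, and mutants 1 to 5 were at 126, 96.2, 117, 118 and 134 CPM. Only Dot1l-cKO replicate 5 exceeded the lowest control. The log2 fold change was -0.30 (SE 0.09, edgeR adjusted p = 0.0793), and with the replicate block it was -0.31 (SE 0.08, edgeR adjusted p = 0.0437). The blocked call was lost without the pair of replicate 1, 2 or 4. DESeq2 gave an adjusted p of 0.0226. Kdm3b and Kdm3a had log2 fold changes of -0.16 and -0.096, and Kdm3b was at -0.091 without Dot1l-cKO replicate 2.

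The other demethylase genes were not DE in the edgeR fits or by DESeq2 or limma, and none had an unadjusted edgeR p under 0.05. In the H3K4 class, which holds the LSD1-type genes Kdm1a and Kdm1b and the JmjC genes Kdm5a and Kdm5b, Kdm5b had the largest difference, a log2 fold change of -0.19 (SE 0.09, edgeR adjusted p = 0.28). Kdm1a, the most highly expressed of the 46 genes, was at 434 ± 22 CPM in controls and at 408 ± 23.6 CPM in the mutants (SD, n = 5 each), with a 95% interval of the log2 fold change from -0.23 to 0.051. Kdm1b and Kdm5a were at -0.028 and -0.066. Without Dot1l-cKO replicate 2 the values of Kdm5b and Kdm1a were nearly equal, -0.119 and -0.12. Of the H3K36 demethylase genes, Kdm2a had a log2 fold change of -0.11 (SE 0.08, edgeR adjusted p = 0.459), and Kdm2b, which also recruits a Polycomb complex to unmethylated CpG islands, was at -0.047. They were at -0.066 and -0.018 without Dot1l-cKO replicate 2. Among the genes of enzymes for H3K9 and H3K36, the value was largest for Kdm4a with -0.10 (SE 0.08, edgeR adjusted p = 0.525), followed by Kdm4c with -0.017 and Kdm4b with 0.014.

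Kdm6b, the H3K27 demethylase gene, varied widely between samples. It was at 37.2, 41.7, 23.5, 44.5 and 48.1 CPM in controls 1 to 5, and mutants 1 to 5 were at 42.3, 15.8, 33.3, 40.4 and 44.9 CPM. The low samples were thus replicate 3 of the controls and replicate 2 of the mutants, both with header number 57. Its log2 fold change was -0.14 (SE 0.26, edgeR adjusted p = 0.814), and it was 0.044 without Dot1l-cKO replicate 2. Of the family with PHF2, PHF8 and KDM7A, which read H3K4 methylation through a PHD finger, Phf2 had the largest difference with a log2 fold change of -0.26 (SE 0.20, edgeR adjusted p = 0.524), and it was at 46.1 CPM in Dot1l-cKO replicate 2 against 90.4 to 123 CPM in the other mutants. Phf8 and Kdm7a were at -0.17 and -0.16. Without that sample Phf2 was at -0.091 and Phf8 at -0.082, and Kdm7a had the largest difference with -0.13.

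**Figure D5:**
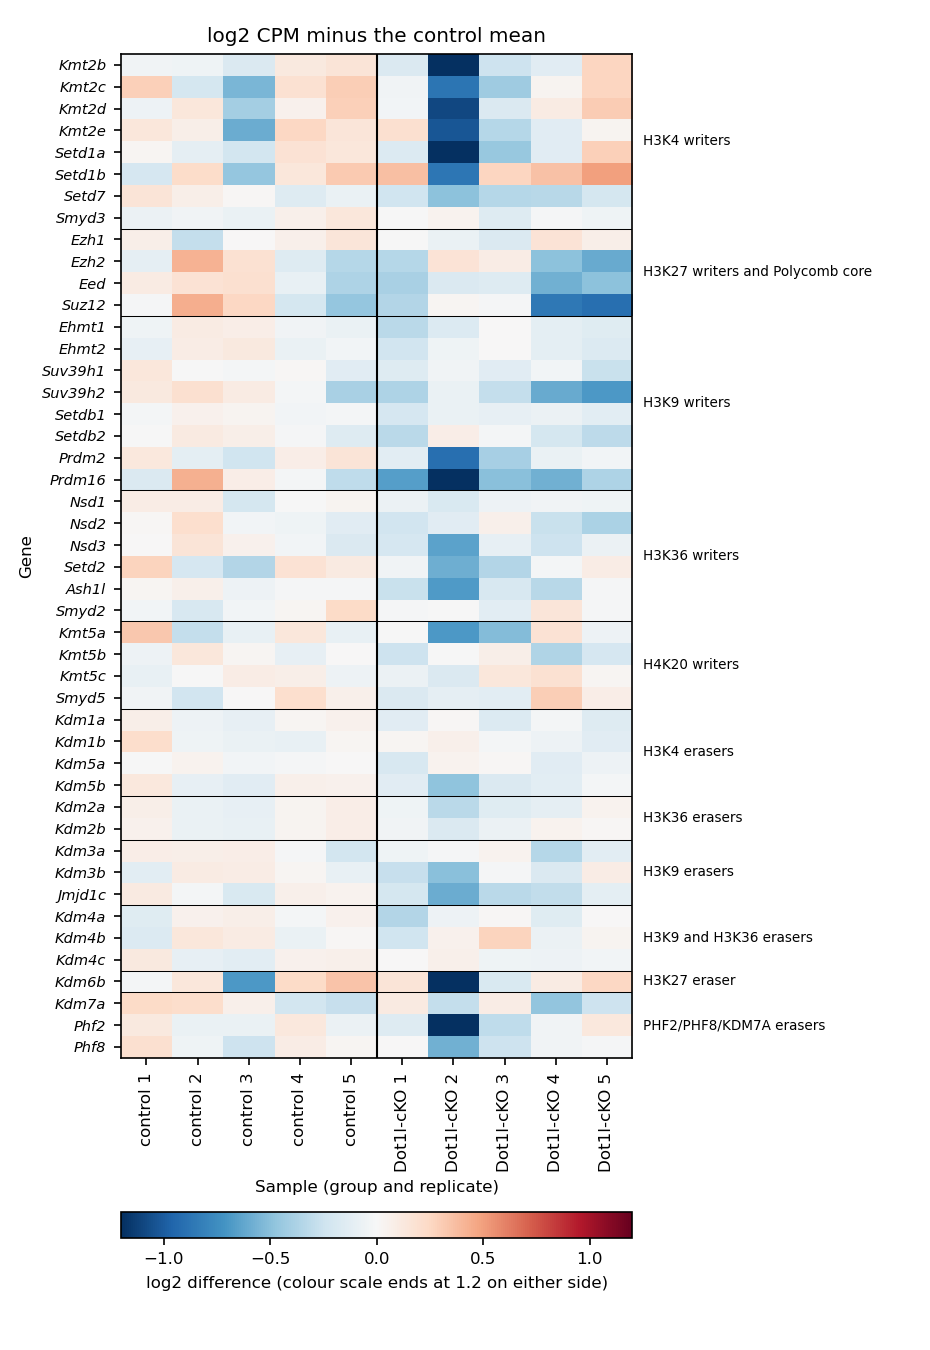
Difference of log2 CPM from the control mean for the 46 genes (rows, grouped by residue) in the 10 samples (columns), with blue for lower and red for higher values. Dot1l-cKO replicate 2 is the darkest column for Kmt2b, Kmt2d, Setd1a, Prdm16, Kdm6b and Phf2, while Suz12, Ezh2 and Suv39h2 are lowest in Dot1l-cKO replicates 4 and 5.

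In Dot1l-cKO replicate 2, 13 of the 46 genes were more than 0.5 log2 units below the median of the other 4 mutants. The largest gaps were those of Kdm6b with -1.39, Setd1b with -1.23, Phf2 with -1.18, Setd1a with -1.15, and Kmt2b and Kmt2d with -1.12. This sample was the lowest of the 5 mutants for 23 genes and the highest for 9. Control replicate 3 was the lowest of the controls for 20 genes. Both had under 0.5% of their counts in mitochondrial rRNA, as had the other samples with header number 57, control replicate 2 and Dot1l-cKO replicate 3. Those were the lowest of their group for only 5 and 4 genes. The part of the library in these values was not tested.

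To compare members of a family independently of library scaling, the log2 ratio of the genes of each of 22 related pairs was tested by an exact two-sided permutation test, whose smallest p is 0.0079. A single pair could not reach an adjusted p under 0.05 among 22. No pair passed after Benjamini-Hochberg adjustment, and 2 had an unadjusted p under 0.05. The ratio of Setd1a to Setd1b was 0.40 ± 0.25 in controls and -0.072 ± 0.18 in Dot1l-cKO (SD, n = 5 each, exact permutation p = 0.0159, adjusted p = 0.349), lower in 5 of 5 pairs, with the limit on Setd1a given above. That of Kdm4a to Kdm4b was 1.09 ± 0.057 and 0.975 ± 0.080 (exact permutation p = 0.0317, adjusted p = 0.349). For Ezh1 to Ezh2 the values were -2.87 ± 0.46 and -2.64 ± 0.46 (exact permutation p = 0.437, adjusted p = 0.686), so the catalytic subunits of PRC2 were not shown to change unequally.

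Genes of the proteins that work with these enzymes moved little as well. Of 57 partner subunit genes, 1 was increased and 1 decreased by edgeR, where 5.67% of all genes tested were increased and 1.44% decreased. A negative log2 fold change was found for 47, and the median was -0.09, against -0.006 over all genes tested. Among genes at or above the lowest of the 46 in level, 60.4% were negative, with a median of -0.042. With the replicate block 2 of the 57 were increased and 3 decreased, against 6.51% and 2.91% of all genes. With DESeq2 2 were increased and 1 decreased, against 6.98% and 3.43% of all genes. Phf19, a PRC2 accessory subunit that binds methylated H3K36, was increased from 5.65 ± 0.818 to 9.52 ± 0.647 CPM (SD, n = 5 each), which gave a log2 fold change of 0.75 (SE 0.12, edgeR adjusted p = 0.00318). Cbx2, the gene of a PRC1 subunit that binds methylated H3K27, was decreased from 70.8 ± 6.81 to 57.1 ± 3.77 CPM (SD, n = 5 each), which gave a log2 fold change of -0.31 (SE 0.08, edgeR adjusted p = 0.0382). The other 7 PRC2 accessory genes had log2 fold changes between -0.37 for Epop and 0.045 for Phf1. The 8 genes of H3K9 methylation cofactors and readers were all negative with a median of -0.25, and 0 of 8 were DE by edgeR, DESeq2 or limma. At an unadjusted edgeR p under 0.05, 4 of the 8 were lower, against 7.3% of all genes tested. Atf7ip had the lowest log2 fold change of the 57 genes with -0.46 (edgeR adjusted p = 0.168). The 13 genes of COMPASS, the complex of the MLL and SET1 enzymes, had a median of -0.083 with 0 DE by these tools and 1 at an unadjusted p under 0.05, and the 10 of the LSD1 complex CoREST had one of -0.108 with 0 DE and 0 at an unadjusted p under 0.05.

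Since EZH2, SUZ12 and SUV39H2 are abundant in dividing progenitors, marker genes of cell types were examined beside them. In bulk tissue, fewer cells of a type and less RNA per cell cannot be told apart. All 12 markers of dividing cells had negative log2 fold changes with a median of -0.22. None was DE by edgeR, DESeq2 or limma, and 1 was decreased with the replicate block, as were 2.91% of all genes. At an unadjusted edgeR p under 0.05, 4 of the 12 were lower, against 7.3% of all genes. The summed level of the 12 markers was 2150 to 2900 CPM in controls and 2130 to 2510 CPM in Dot1l-cKO. Of 9 radial glia markers, 6 had a negative log2 fold change, and the median was -0.157. By edgeR 3 were increased, Vim, Slc1a3 and Fabp7, and 1 was decreased, Pax6 (2 decreased with the replicate block). Their sums were 2400 to 2920 CPM in controls and 3030 to 3400 CPM in Dot1l-cKO, with Vim at means of 919 and 1320 CPM. All 6 microglia markers were increased (5 with the replicate block), with sums of 31.6 to 54.2 and 63.9 to 97.5 CPM. Markers of ventrally derived interneurons were lower in 8 of 8 cases and decreased in 3, with sums of 64.9 to 311 and 6.35 to 85.1 CPM. Of 10 neuron markers 1 was increased, with sums of 3180 to 4850 and 3660 to 4480 CPM, and of 6 intermediate progenitor markers none was DE by edgeR, DESeq2 or limma, or had an unadjusted p under 0.05, with sums of 609 to 954 and 711 to 909 CPM. The endothelial, erythroid and choroid plexus lists, of 5 genes each, likewise had 0 DE and 0 at an unadjusted p under 0.05. The choroid plexus sums were 1.96 to 636 CPM in controls and 3.24 to 151 CPM in Dot1l-cKO. Ttr was at 498 and 575 CPM in control replicates 1 and 3 and at 0.234 CPM in control replicate 4. With such a spread, the lack of calls does not show equal choroid plexus content. The part of cell composition in the values of the 46 genes was not tested.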

How the data were processed

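Per the labels and the study's methods, the authors extracted total RNA from dorsal telencephalon, prepared stranded libraries after depletion of ribosomal RNA, trimmed the reads with Trim Galore 0.2.8, mapped them to mm10 with TopHat2 2.0.9 and assigned them to Ensembl genes with HTSeq 0.6.0 in reverse-stranded mode. The deposited raw tables hold whole-number counts per gene. The deposited normalised tables hold a signal, the same counts divided by the DESeq2 1.6.1 size factor of the sample, which was recomputed with a largest relative deviation of 6.66e-15.

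Counts were tested with edgeR 4.0.16 in R 4.3.3 (filterByExpr, TMM, quasi-likelihood F test, no covariate), with Benjamini-Hochberg adjustment over 17039 genes and a threshold of 0.05. The standard error is the size of the log2 fold change divided by the square root of F and is approximate. CPM used the TMM-normalised library size, and FPKM the summed exon length of GENCODE vM21. Gene pairs were compared on log2 CPM with a prior count of 2. On simulated counts with 200 changed genes, edgeR recovered 138 and made 7 false calls. Reads carried no molecular identifiers, so depth covers counting error only.

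The labels call the replicates biological. Across genes, the deviations of same-numbered samples from their group means had correlations of 0.229, 0.349, 0.145, 0.597 and 0.131, all over 0.1, so the numbers were taken to pair the samples. A control correlated best with the mutant of its own number in 2 of 5 cases, and a mutant with its control in 3 of 5. Same-numbered samples share the header number, and a pairing within it was not tested. One gene of the dorsal telencephalon marker list is not reported here and was left out of its sum. The genes and lists were chosen with earlier results of these data known. Fold change, standard error and adjusted p are given for genes that were DE and, in each residue class, for the gene with the largest difference among the others. Further values, for genes DE only with the block or DESeq2 or low in 1 sample, were chosen after their values were seen, as was leaving out a pair under the block. Alternatives were the replicate and header-number blocks, a Y-linked covariate, DESeq2 1.42.0, its size factors in edgeR, limma 3.58.1 on log2 of the normalised counts plus 1, filters of none and of at least 10 counts in every sample, removal of mitochondrial genes, a threshold of 0.01, a prior count of 0.5 for the pairs, the header-number sets alone, and each sample left out.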

Additional observations from a re-analysis of the deposited data

Results flagged for a closer look

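The log2 CPM of each of the 46 genes was examined within each group of 5 samples for a sample far from the others, judged by its gap to the nearest sample over the range of the group against a limit of 0.71. Of 92 groups examined, 5 had such a sample. The limit gives 1 in 20 by chance for a single group. The 92 groups share the same 10 samples, so the count cannot be judged against that rate. Dot1l-cKO replicate 2 was such a sample for 4 genes, below the other mutants each time. For Nsd1 the distance was small, -0.12 log2 units from the median of the other mutants. The gap over range was 0.824 for Setd1b (log2 CPM of 2.48, group median 3.7), 0.743 for Prdm16 (4.38, median 5.3), 0.716 for Kdm6b (3.98, median 5.34) and 0.765 for Nsd1 (8.58, median 8.7). In control replicate 3, Kmt2e was low with a gap over range of 0.784 (6.26, median 6.99). Both samples have header number 57. The cause was not tested.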

How the results depend on the processing

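The lowest count of the 46 genes in any sample was 313, and replicates differed by more than counting error, with a chi-square per degree of freedom of at least 23.4 for every pair of a group. Of the 46 genes, 38 were DE in no alternative. The sign of the log2 fold change turned in at least 1 alternative for 13 genes, none of them DE there, with reported values from -0.142 for Kdm6b to 0.165 for Setd1b. Over all alternatives the adjusted p ranged from 0.00988 to 0.235 for Eed, 0.00735 to 0.605 for Suz12, 0.0395 to 0.824 for Ezh2, 0.0106 to 0.344 for Suv39h2, 0.0226 to 0.353 for Jmjd1c and 0.0215 to 0.6 for Setdb1.

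The number of DE genes among the 46, all decreased, was 1 in the reported fit. It was 6 with the replicate block, 6 with the header-number block, 6 with DESeq2, 2 with limma, and 0 with the Y-linked covariate, with header number 57 only, without it, and at an adjusted p under 0.01. Leaving out 1 sample gave 0 to 4, and leaving out a pair under the block gave 0 to 5. The median of the 46 genes moved to -0.196 with limma and ranged from -0.197 without the pair of replicate 3 under the block to -0.10 without Dot1l-cKO replicate 2.

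Over all genes, 495 were decreased with the replicate block and 597 with the header-number block. DESeq2 called 2011, 663 of them decreased. With header number 57 only, 1 was DE, 1 increased and 0 decreased, and without it 745, 590 increased and 155 decreased. At an adjusted p under 0.01, 495 were DE, 422 increased and 73 decreased. Leaving out samples or pairs gave 336 to 2117 DE genes, 265 to 1217 increased and 70 to 900 decreased.

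Signs turned as follows. With header number 57 only the log2 fold changes were -0.101 for Setd1b, 0.03 for Smyd3, 0.02 for Ezh1, 0.063 for Smyd2, -0.032 for Kmt5c, 0.01 for Smyd5, 0.027 for Kdm1a, 0.109 for Kdm1b, 0.038 for Kdm5a and 0.141 for Kdm4c. Without it they were 0.026 for Kmt2d and -0.018 for Kdm4b. The Y-linked covariate gave 0 for Ezh1, 0.004 for Smyd2 and 0.004 for Smyd5, and the filter of 10 counts 0.002 for Smyd5. Kmt5c was at -0.002 with DESeq2 and with its size factors, and at -0.006 with limma. Kdm4b was at -0.013 with DESeq2 and with its size factors, and at -0.019 with limma. With 1 sample left out, values ranged from -0.264 to 0.038 for Kmt2d, -0.074 to 0.031 for Ezh1, -0.054 to 0.055 for Smyd2, -0.017 to 0.07 for Kmt5c, -0.084 to 0.052 for Smyd5, -0.052 to 0.027 for Kdm1b, -0.056 to 0.071 for Kdm4b, -0.049 to 0.012 for Kdm4c and -0.28 to 0.044 for Kdm6b. The cause was not tested. The replicate block changed no call of the 46 genes other than the 5 given above. No gene pair passed under any alternative, which says nothing of stability, since the sign-flip test of the pairing cannot reach 0.05 with 5 pairs and a single pair could not pass among 22 in the exact test.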
